A study of Mus musculus with 10 samples.

Results

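The mammalian circadian clock is a feedback loop of transcription factors that runs in most cells of the body, the ovary included. ARNTL (also called BMAL1), paired with CLOCK or NPAS2, activates genes through E-box sequences, among them the Per and Cry genes, whose products repress ARNTL and its partners. A second loop joins it: NR1D1 and NR1D2 (REV-ERB alpha and beta) repress Arntl, Npas2 and Nfil3 through ROR elements, so that in tissues with a running clock these genes peak when Nr1d1 and Dbp are low. DBP and NFIL3 act on the same D-box sequences, DBP as an activator and NFIL3 as a repressor.

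The genes described here are 10 clock and clock output genes (Dbp, Nr1d1, Nr1d2, Arntl, Nfil3, Per1, Per2, Per3, Npas2 and Cry1) of 24306 genes in the count table, found by symbol, and all 10 passed the filter on low counts. They were selected on their counts in these libraries and on their fold changes between genotypes, so those differences are given as descriptions. Counts of members called between genotypes are printed beside the share of all genes called, and nothing is read from them. Each of the 10 polyA RNA libraries came from mouse ovary at 6 weeks of age, in a C57BL/6 and 129 mixed strain. The 2 Dmrt1 het Rar mutants carried 1 floxed Dmrt1 allele (fl/+), floxed Rara, Rarb and Rarg (f/f each) and Sf1-Cre. The 3 Rar mutants carried the same floxed receptor genes and Sf1-Cre with wild-type Dmrt1 (+/+). The 5 controls also had wild-type Dmrt1 and the same floxed receptor genes, and lacked Cre. Rara, Rarb and Rarg encode the retinoic acid receptors, Dmrt1 encodes a regulator of gonadal sex, and Sf1-Cre acts from the Nr5a1 promoter in somatic cells of the gonad, so a whole ovary keeps cells that the Cre does not reach. There was no group with Cre and without floxed receptor genes. The labels give no time of day for the dissections and no lighting schedule, so the libraries cannot be placed on a daily cycle. Nothing in the labels says whether libraries of 1 group came from separate animals, and p-values measure only the spread between these libraries.

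Libraries held 21064856 to 25920131 counts. The titles carry numbers that the labels do not explain: 4 libraries (both Dmrt1 het Rar mutants, Rar mutant 1 and control 1) have numbers under 7800 and 6 have higher ones. Principal component 1 of log2 CPM (20570 genes, 34.9% of their variance) set those 4, from -55.8 to -44.1, apart from the other 6, from 4.44 to 57.9. Rar mutant 3 stood apart in another way: Ptgs2, the prostaglandin synthase induced in follicles before ovulation, had 4875 counts in it, against 98 or fewer in each other library, and Sult1e1, an estrogen sulfotransferase, had 24572, against 24 or fewer. The summed level of 6 ovulation markers, of 7 listed, ran from 5.72 to 8.98 CPM (counts scaled to library size with TMM factors) in Dmrt1 het Rar mutants, from 8.23 to 2377 CPM in Rar mutants with a median of 27.9, and from 4.21 to 7.90 CPM in controls, with at most 1 of the 6 at 0 in a library. The 8 markers that check the ovary label were above 0 in every library and summed to 520 to 1164 CPM. Of the targeted receptor genes, Rara averaged 27.8 ± 4.02 CPM in ovaries of both mutant groups, against 25.7 ± 6.36 CPM in controls, and Rarb 2.52 ± 0.298 CPM against 3.11 ± 0.824 CPM in controls (SD, n = 5 each). Rarg averaged 18.8 ± 2.67 CPM in ovaries of both mutant groups, against 29.4 ± 3.51 CPM in controls (SD, n = 5 each), and did not pass the threshold (log2 fold change -0.64, SE 0.14, adjusted p = 0.190, edgeR).

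Arntl and Nfil3 were higher in all 3 Rar mutants than in any control, and Nr1d1 and Dbp were lower in all 3 than in any control. Of all genes, 2.68% lay wholly above controls in Rar mutants and 2.45% wholly below. The members were chosen with this contrast known, so nothing is read from these shares. The Dmrt1 het Rar mutants were split: replicate 1 was below every control for Nr1d1 and Dbp and above every control for Nfil3, with Arntl inside the control range, while replicate 2 lay inside the control range for all 4 genes. As a group they overlapped the controls for each of the 10 genes. In a bulk library, fewer cells that express a gene and less RNA per cell cannot be told apart.

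Markers of the cell types of the ovary were examined in Rar mutants against controls. Of those tested edgeR called none, where it called only 2 of 20570 genes (0.00972%), so nothing is read from that. In Rar mutants against controls the log2 fold change was negative for 6 of 6 granulosa markers (median -0.61), 6 of 6 oocyte markers (-0.35), 4 of 4 theca markers (-0.38), 4 of 5 luteal markers (-0.74) and 5 of 6 adipocyte markers (-1.82), and positive for 4 of 4 smooth muscle markers (0.39). Their summed levels overlapped between the groups, for granulosa markers at 1668 to 3242 CPM in Rar mutants and 1797 to 5687 CPM in controls. Oocyte markers summed to 149.8 CPM in Rar mutant 1, 394 and 468 CPM in Rar mutants 2 and 3, and 339 to 510 CPM in controls. Among adipocyte markers in Rar mutants, Adipoq had only 0 to 17 counts and Cidec 0 to 14, while Plin1 had 127 to 685. Markers of 1 cell type were read in the same libraries, so their signs are not separate evidence. Luteal markers summed to 7439 CPM in Rar mutant 3, 1398 and 1861 CPM in the other Rar mutants, and 572 to 3521 CPM in controls. The part of these cell types in the levels of the clock genes was not tested.

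Arntl encodes the core activator. It had 19.5 and 13.0 CPM in Dmrt1 het Rar mutants, 39.6, 39.9 and 24.4 CPM in Rar mutants, and 21.9, 12.8, 10.5, 14.6 and 20.005 CPM in controls. The lowest Rar mutant, replicate 3, stood just above the highest control, and both Dmrt1 het Rar mutants lay within the control range. The log2 fold change was 1.11 (SE 0.26) for Rar mutants against controls and 0.02 (SE 0.31) for Dmrt1 het Rar mutants against controls. Npas2, whose product replaces CLOCK as a partner of ARNTL, had 4.78 and 2.33 CPM in Dmrt1 het Rar mutants, 17.4, 8.74 and 3.67 CPM in Rar mutants, and 6.71, 2.75, 3.07, 3.95 and 7.42 CPM in controls. Rar mutants 1 and 2 were above all controls, but Rar mutant 3 was inside their range, so the groups overlapped. The log2 fold change for Rar mutants against controls was 1.04 (SE 0.48), and 0.38 without Rar mutant 1. Over the 10 libraries Npas2 followed Arntl (Pearson r = 0.86 and Spearman rho = 0.81 on log2 CPM, n = 10, as a description).

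Of the REV-ERB genes, Nr1d1 ran the other way in all 3 Rar mutants. It had 16.3 and 35.3 CPM in Dmrt1 het Rar mutants, 17.1, 11.0 and 9.22 CPM in Rar mutants, and 33.2, 25.3, 23.1, 55.2 and 43.1 CPM in controls. All 3 Rar mutants were below the lowest control, and of the Dmrt1 het Rar mutants replicate 1 was below it and replicate 2 inside the control range. The log2 fold change was -1.55 (SE 0.36) for Rar mutants and -0.49 (SE 0.40) for Dmrt1 het Rar mutants, each against controls. Nr1d2, the paralog with an overlapping role, was the most abundant member by length in controls, with 70.6 and 98.5 CPM in Dmrt1 het Rar mutants, 71.0, 33.0 and 49.6 CPM in Rar mutants, and 108, 111, 54.5, 75.8 and 66.0 CPM in controls. Rar mutants 2 and 3 were below every control and Rar mutant 1 was not. Its log2 fold change in Rar mutants against controls was -0.71 (SE 0.29).

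The D-box pair had the widest spread over the 10 libraries, with an SD of log2 CPM of 1.02 for Dbp and 0.99 for Nfil3, against 0.26 for Cry1, the least variable member, and a median of 0.39 over 20570 genes. Dbp had 7.64 and 26.1 CPM in Dmrt1 het Rar mutants, 15.7, 7.37 and 8.11 CPM in Rar mutants, and 22.5, 59.4, 22.7, 37.7 and 26.8 CPM in controls. Every Rar mutant was below every control, and the Dmrt1 het Rar mutants were split, with replicate 1 as low as the lowest Rar mutants. The log2 fold change was -1.72 (SE 0.47) for Rar mutants and -1.01 (SE 0.53) for Dmrt1 het Rar mutants, each against controls. Nfil3 had 16.4 and 13.0 CPM in Dmrt1 het Rar mutants, 17.0, 39.7 and 100 CPM in Rar mutants, and 11.6, 15.1, 10.8, 14.8 and 14.2 CPM in controls. Rar mutant 1 lay just above the highest control and Rar mutant 3 far above it, so the 3 Rar mutants differed among themselves more than the controls did. The log2 fold change of Nfil3 for Rar mutants against controls was 1.97 (SE 0.42), and 1.07 without Rar mutant 3, the library with the highest sums of ovulation and luteal markers. The part of those markers in the Nfil3 level was not tested.

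The repressor genes Per1, Per2, Per3 and Cry1 did not share a single direction. Per3 had 24.2 and 35.2 CPM in Dmrt1 het Rar mutants, 25.1, 7.49 and 11.9 CPM in Rar mutants, and 31.7, 53.6, 19.2, 17.5 and 17.6 CPM in controls. Rar mutants 2 and 3 were below every control and Rar mutant 1 was among them, for a log2 fold change of -0.93 (SE 0.46), which was -0.55 without control 2. Per1, which also responds to cyclic AMP, had 35.2 and 41.0 CPM in Dmrt1 het Rar mutants, 34.9, 30.5 and 82.2 CPM in Rar mutants, and 30.2, 45.6, 32.4, 36.8 and 26.2 CPM in controls. Only Rar mutant 3 left the control range, and the log2 fold change for Rar mutants against controls, 0.52 (SE 0.30), was -0.09 without that library. Cry1 had 22.0 and 19.2 CPM in Dmrt1 het Rar mutants, 20.5, 21.2 and 32.2 CPM in Rar mutants, and 18.4, 22.9, 17.4, 17.4 and 18.4 CPM in controls. Here too Rar mutant 3 alone exceeded the controls, and the log2 fold change was 0.38 (SE 0.18) with it and 0.12 without it. Per2 had 15.2 and 14.3 CPM in Dmrt1 het Rar mutants, 11.7, 5.30 and 13.7 CPM in Rar mutants, and 8.91, 25.7, 9.52, 7.15 and 4.49 CPM in controls. Control 2 was the highest Per2 library, the groups overlapped, and the log2 fold change for Rar mutants against controls, -0.13 (SE 0.50), was 0.43 without control 2.

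**Figure D1:**
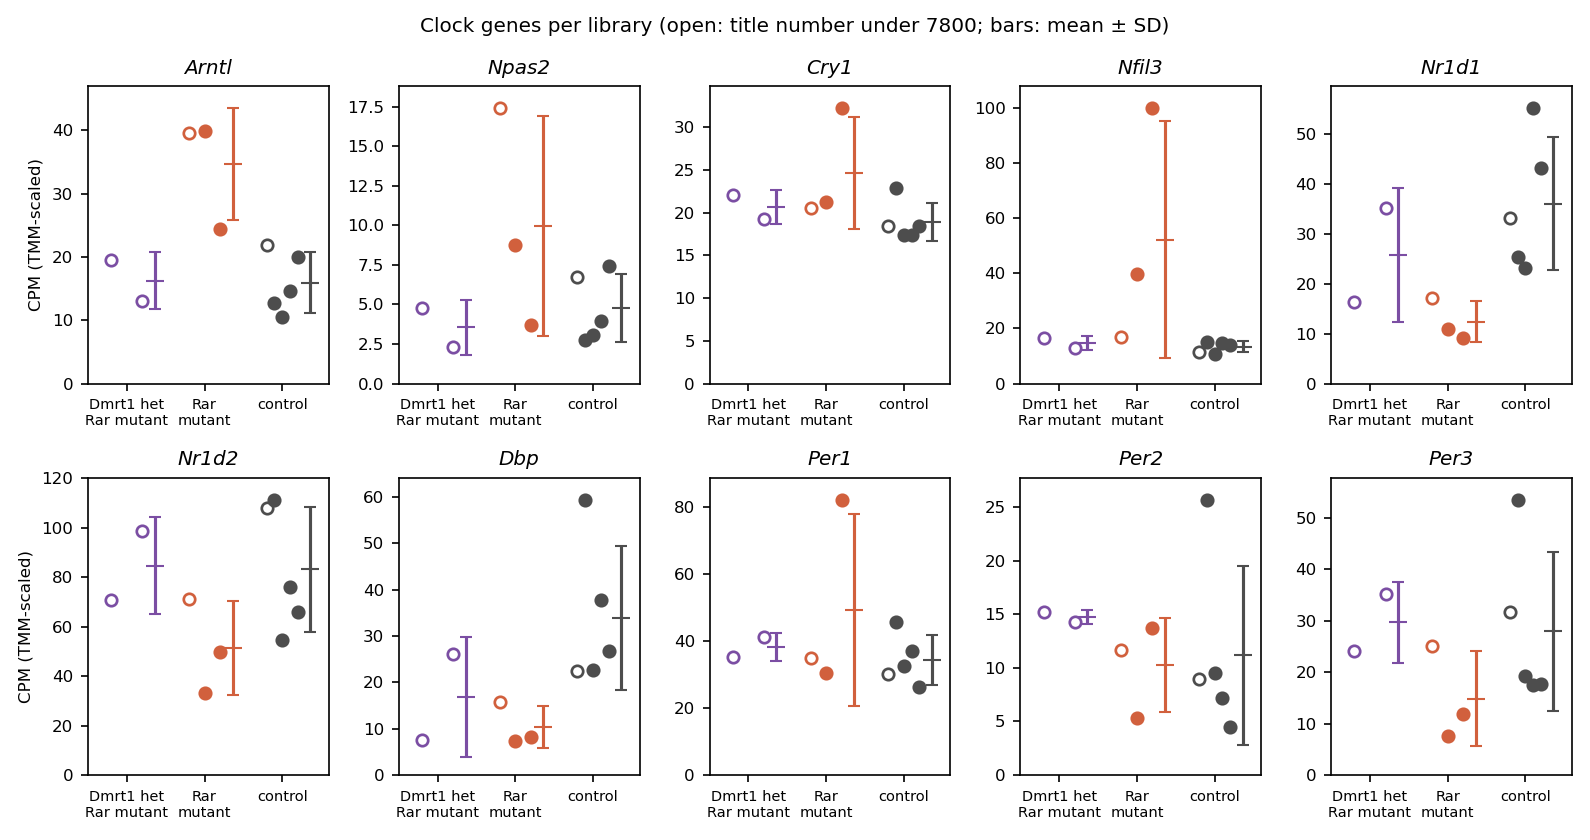
Level of each of the 10 clock genes in CPM (vertical axis, from 0) per library, in Dmrt1 het Rar mutants (n = 2), Rar mutants (n = 3) and controls (n = 5). Each point is a library, open where the title number is under 7800, and bars give the mean ± SD. Arntl and Nfil3 lie above all controls in the 3 Rar mutants and Nr1d1 and Dbp below, while Nfil3 in Rar mutant 3 reaches 100 CPM.

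**Figure D2:**
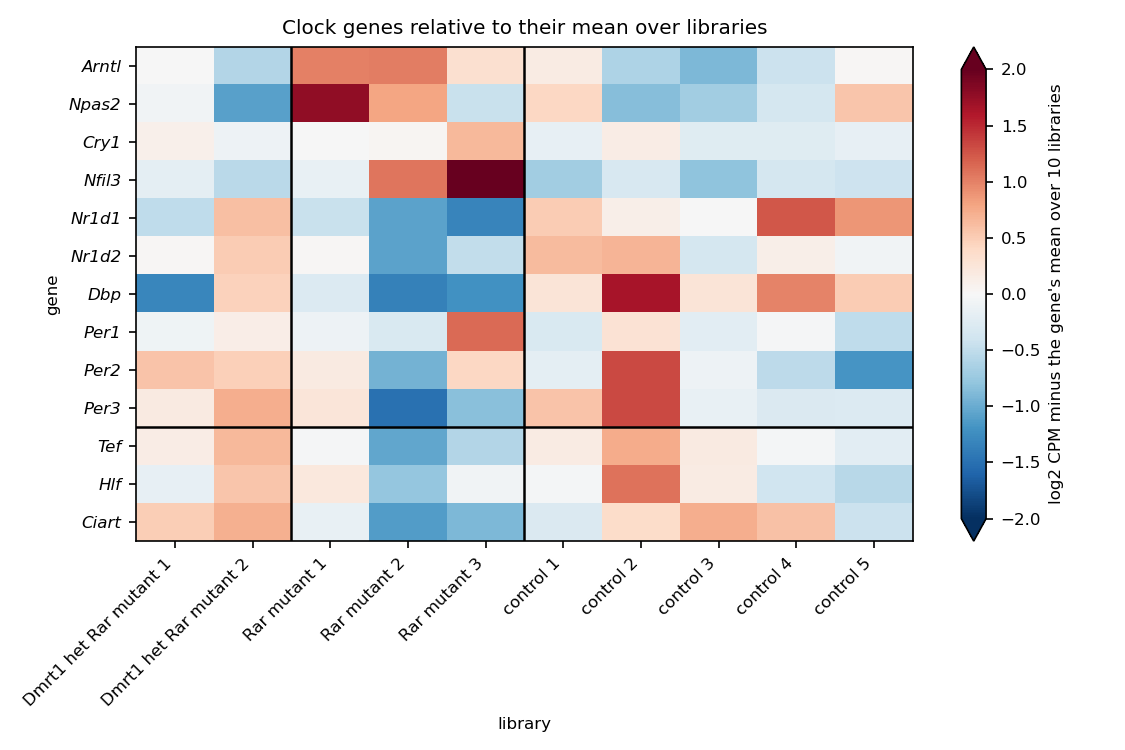
log2 CPM of each clock gene minus its mean over the 10 libraries, in colour, for the 10 members (above the horizontal line) and 3 other clock genes, Tef, Hlf and Ciart (below it). Columns are libraries, with Dmrt1 het Rar mutants left, Rar mutants in the middle and controls right. Rar mutant 2 is red for Arntl, Npas2 and Nfil3 and blue for both REV-ERB genes, Dbp, Per3, Tef and Ciart, and control 2 is red for Dbp, Per2 and Per3.

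Promoter windows of 4 members are printed because they hold the sequence elements through which this loop is known to run, 1 kind for each role. They come from RefSeq (GRCm38.p6), run 5′ to 3′ along the gene from 250 bases before the start to 50 bases after it, and have the matched letters in capitals. The window of Nr1d1 (chr11:98775328-98775627, minus strand) holds an E-box variant. A ROR element core is in 1 of the 2 windows of Arntl (chr7:113207261-113207560, plus strand, the other not printed) and in that of Nfil3 (chr13:52980990-52981289, minus strand). The window of Per3 (chr4:151044616-151044915, minus strand) holds a D-box at 2 places.
Nr1d1: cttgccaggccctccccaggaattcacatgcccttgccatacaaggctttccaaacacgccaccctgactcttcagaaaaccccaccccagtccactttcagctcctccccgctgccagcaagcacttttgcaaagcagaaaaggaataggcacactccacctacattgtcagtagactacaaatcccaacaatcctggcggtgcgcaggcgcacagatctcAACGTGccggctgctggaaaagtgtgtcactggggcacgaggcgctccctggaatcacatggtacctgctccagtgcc
Arntl: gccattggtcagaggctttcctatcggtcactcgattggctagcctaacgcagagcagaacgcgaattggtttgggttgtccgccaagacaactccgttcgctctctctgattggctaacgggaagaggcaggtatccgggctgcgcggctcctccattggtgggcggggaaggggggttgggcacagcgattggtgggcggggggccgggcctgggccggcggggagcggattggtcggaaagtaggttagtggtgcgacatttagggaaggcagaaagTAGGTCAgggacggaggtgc
Nfil3: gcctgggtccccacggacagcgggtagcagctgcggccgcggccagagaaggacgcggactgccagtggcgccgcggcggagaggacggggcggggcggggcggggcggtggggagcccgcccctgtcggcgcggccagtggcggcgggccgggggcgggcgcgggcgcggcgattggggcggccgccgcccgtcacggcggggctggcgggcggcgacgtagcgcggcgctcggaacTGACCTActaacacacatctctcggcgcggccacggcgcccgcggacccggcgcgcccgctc
Per3: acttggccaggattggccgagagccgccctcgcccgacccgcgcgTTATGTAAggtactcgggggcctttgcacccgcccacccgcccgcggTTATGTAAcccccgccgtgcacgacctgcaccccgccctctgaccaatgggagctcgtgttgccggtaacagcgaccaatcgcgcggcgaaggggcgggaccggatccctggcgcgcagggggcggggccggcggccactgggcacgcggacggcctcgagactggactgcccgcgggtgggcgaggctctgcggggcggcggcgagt

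Promoter windows were found for 9 of the 10 members, all but Per2, as 11 windows. Both strands were searched for 6 motifs: CACGTG (E-box), CACGTT (E-box variant), TTATGNAA (D-box), TAGGTCA and TGGGTCA (ROR element cores) and TGACGTCA (a cyclic AMP response element). The E-box and its variant share their first letters, but no place can match both. TAGGTCA was in 2 of the 9 members (Arntl, from base 30 after the start, and Nfil3, from 12 bases before it) and in 2.61% of all 32851 windows. The D-box was in 2 members (Per3 and Per1) and in 3.38% of all windows. CACGTG was in 2 members (Per1 and Cry1) and 7.15% of all windows, and CACGTT in 2 (Nr1d1 and Cry1) and 4.68%. By window, TAGGTCA, the D-box, CACGTG and CACGTT were each in 2 of the 11. Arntl and Per1 have 2 windows each, and the matches of each gene were in 1 of its 2. TGGGTCA and TGACGTCA were in none of these members' windows, and in 3.98% and 1.79% of all windows. A match describes letters in a window and is not a binding site, and elements outside these windows were not searched.

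The order of the members' levels differed between Rar mutants and controls. Per length, in the authors' deposited FPKM (fragments scaled by gene length and library depth), Nr1d2 led the controls at 16.6 ± 5.05 (SD, n = 5), followed by Nr1d1 at 11.6 ± 4.20 and Dbp at 11.3 ± 5.18. A middle group of Nfil3 (6.54 ± 0.927 FPKM), Per1 (6.06 ± 1.31 FPKM) and Cry1 (5.64 ± 0.685 FPKM) came next, and Per3 (2.90 ± 1.61 FPKM), Arntl (2.11 ± 0.636 FPKM), Per2 (1.90 ± 1.43 FPKM) and Npas2 (0.993 ± 0.445 FPKM) were lowest. Neighbours in this order differed by less than the larger of their SDs, except Cry1 and Per3. In Rar mutants Nfil3 had 8.23, 19.4 and 50.1 FPKM, with a mean of 25.9 ± 21.7 FPKM (SD, n = 3), or 13.8 FPKM without Rar mutant 3. It stood above Nr1d2 in Rar mutants 2 and 3 and below it in Rar mutant 1, where Nr1d2 had 13.9 FPKM. Over the Rar mutants Nr1d2 had 10.2 ± 3.70 FPKM, Per1 8.76 ± 5.26 FPKM and Cry1 7.38 ± 2.10 FPKM, and Arntl at 4.57 ± 1.11 FPKM stood above Nr1d1 at 4.01 ± 1.27 FPKM and Dbp at 3.44 ± 1.48 FPKM, values that differed by less than the larger of their SDs. Npas2 (2.05 ± 1.41 FPKM), Per2 (1.74 ± 0.763 FPKM) and Per3 (1.53 ± 0.929 FPKM) were the lowest there. In Dmrt1 het Rar mutants Nr1d2 led again at 16.8 ± 3.81 FPKM (SD, n = 2), and Arntl, at 2.14 ± 0.612 FPKM, was near its control level.

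Ratios of counts within a library do not depend on how libraries are scaled. The log2 ratio of Nr1d1 to Arntl, 2 genes with opposed known rhythms, was -0.26 and 1.44 in Dmrt1 het Rar mutants, -1.22, -1.86 and -1.40 in Rar mutants, and 0.60, 0.99, 1.14, 1.92 and 1.11 in controls. Every Rar mutant had more counts of Arntl than of Nr1d1 and every control fewer, with means of -1.49 ± 0.33 in Rar mutants (SD, n = 3) and 1.15 ± 0.48 in controls (SD, n = 5). Counts are not scaled by gene length (7523 exon bases for Arntl, 3077 for Nr1d1), so 0 does not mark equal levels per length. Per length, Rar mutant 1 had 5.445 FPKM of Nr1d1 and 5.172 FPKM of Arntl. The log2 ratio of Dbp to Nfil3 was -1.11 and 1.00 in Dmrt1 het Rar mutants, -0.12, -2.43 and -3.62 in Rar mutants, and 0.96, 1.98, 1.06, 1.35 and 0.92 in controls. It was below 0 in each Rar mutant and in Dmrt1 het Rar mutant 1 and above 0 in the other 6 libraries. In both pairs the first gene lay wholly below controls in Rar mutants and the second wholly above. Their ratios therefore had to separate Rar mutants from controls and add no support to the single genes. The log2 ratio of Per3 to Npas2 overlapped, at 2.34 and 3.92 in Dmrt1 het Rar mutants, 0.53, -0.22 and 1.70 in Rar mutants, and 2.24, 4.28, 2.65, 2.14 and 1.25 in controls.

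**Figure D3:**
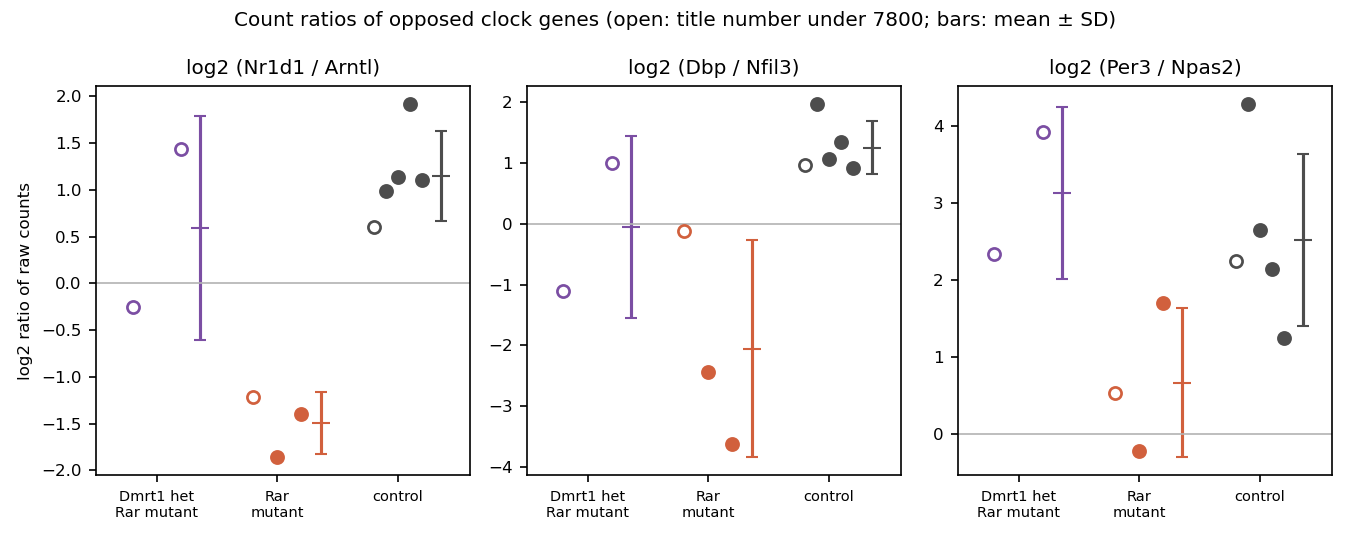
log2 ratio of raw counts within each library for 3 pairs of clock genes, in Dmrt1 het Rar mutants (n = 2), Rar mutants (n = 3) and controls (n = 5). Points are libraries, open where the title number is under 7800, and bars give the mean ± SD. The grey line marks equal counts, which are not scaled by gene length. The ratio of Nr1d1 to Arntl runs from -1.86 to -1.22 in Rar mutants and from 0.60 to 1.92 in controls.

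None of the 10 members passed the threshold (adjusted p under 0.05) in edgeR's test of Rar mutants against controls, in which 2 of 20570 genes were called (0.00972%). At an unadjusted p under 0.05 there were 5 members, beside 9.45% of all genes, and DESeq2 called 4 (Dbp, Nr1d1, Arntl and Nfil3) beside 372 of 21334 genes with an adjusted p (1.74%). Without Rar mutant 1 edgeR called Nfil3, beside 1.88% of all genes. Of the members, 2 lay wholly above controls and 2 wholly below them, where 2.68% and 2.45% of all genes did, and 5 had a log2 fold change of at least 1 in size, where 5.36% of all genes did. The genes were chosen with this contrast known, so nothing is read from these shares. The median log2 fold change was 0.12 over the members, 5 of them positive and 5 negative, and -0.02 over all genes. The authors' deposited table lists 185 genes, of which 3 are members. The labels name it beside the Rar mutant and control libraries and not beside the Dmrt1 het Rar mutants, but it does not name its own groups, and the series is described elsewhere as 2 genotypes with 5 ovaries apiece, so whether it pools 5 Rar-deleted ovaries is not known. In the authors' deposited table the log2 fold change is -1.19 for Nr1d1 (SE 0.26, adjusted p = 0.00160), 1.33 for Nfil3 (SE 0.30, adjusted p = 0.00210) and -1.22 for Dbp (SE 0.28, adjusted p = 0.00302). These come with a Wald score and not from edgeR, and how the fold changes were estimated is not given, so sizes are not compared.

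With the Dmrt1 het Rar mutants added, the 5 Rar-deleted ovaries overlapped the controls for each member (0.733% of all genes lay wholly above controls and 0.981% wholly below). None was called by edgeR or DESeq2, where edgeR called 21 of 18954 genes (0.111%) and DESeq2 0.745%, and 4 had an unadjusted p under 0.05, as 8.47% of all genes did. The log2 fold change was -1.39 (SE 0.40) for Dbp, -1.02 (SE 0.36) for Nr1d1, 0.77 (SE 0.31) for Arntl and 1.48 (SE 0.51) for Nfil3. For Dmrt1 het Rar mutants against controls, 0 members were called by edgeR or DESeq2 beside 4 of 20570 genes by edgeR (0.0194%) and 1.78% by DESeq2. At an unadjusted p under 0.05 there were 0 members and 17.3% of all genes. No member lay wholly above or below controls, where 14.6% and 13.8% of all genes did. These comparisons share their control libraries.

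The difference between the Rar-deleted genotypes was also fitted directly. Dmrt1 het Rar mutants lay wholly below Rar mutants for Arntl (log2 fold change -1.08, SE 0.35) and Nfil3 (-1.83, SE 0.57) and wholly above them for Per2 (0.53), where 20.4% of all genes lay wholly below and 18.9% wholly above. Nr1d1 differed by 1.06 (SE 0.42) and Dbp by 0.70 (SE 0.54), with overlapping libraries. No gene was called by edgeR (0 of 20570, 0%), 4 members had an unadjusted p under 0.05 (16.9% of all genes), and DESeq2 called Nfil3 beside 626 of 17113 genes (3.66%). Without Rar mutant 1 edgeR also called Nfil3, beside 1.64% of all genes. Without Dmrt1 het Rar mutant 2 the Dbp difference changed sign to -0.44. Both Dmrt1 het Rar mutants have title numbers under 7800 and 2 of the 3 Rar mutants do not, and without Rar mutant 1 the genotype and the title-number set cannot be told apart.

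**Figure D4:**
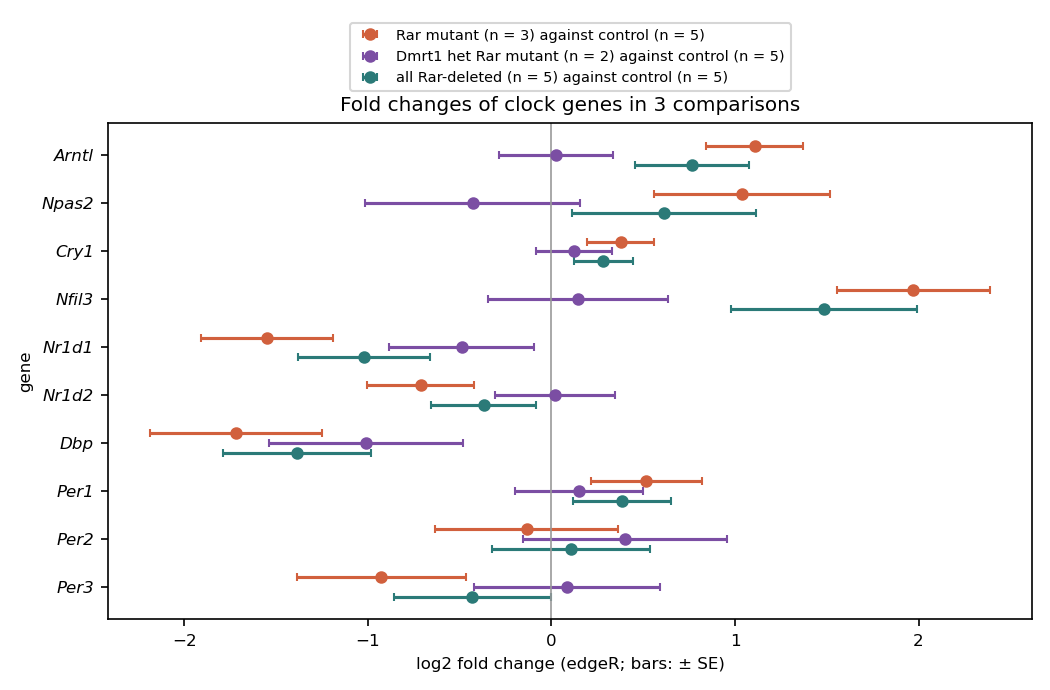
log2 fold change (horizontal axis) with its SE from edgeR for each clock gene, in Rar mutants (n = 3, orange), Dmrt1 het Rar mutants (n = 2, purple) and all Rar-deleted ovaries (n = 5, green), each against the same 5 controls. Rar mutant values lie at 1.11 for Arntl, 1.97 for Nfil3, -1.55 for Nr1d1 and -1.72 for Dbp, and Dmrt1 het Rar mutant values near 0 for Arntl, Nfil3 and Nr1d2.

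Among the 2 Rar mutants and 4 controls with title numbers over 7800, the log2 fold change was -2.24 for Dbp, -1.86 for Nr1d1, 1.15 for Arntl and 2.35 for Nfil3. There edgeR called Nfil3, beside 0.724% of all genes. Those of lower number hold 1 Rar mutant and 1 control, too few for a value with an error: Rar mutant 1 had 15.7 CPM of Dbp, against 22.5 CPM in control 1, and 39.6 CPM of Arntl, against 21.9 CPM in control 1. Between the sets themselves, in a fit with the 3 genotypes as terms that rests on controls and Rar mutants, 0 members were called by edgeR or DESeq2, where 2414 of 20570 genes were (11.7%) by edgeR and 20.3% by DESeq2, and 2 members had an unadjusted p under 0.05 (31.8% of all genes). Nr1d2 was higher in the lower numbers by a log2 difference of 0.61 (SE 0.26) and Npas2 by 1.04 (SE 0.46). Leaving out control 2 put Nr1d2 and Per3 past the threshold, in a fit that called 2803 of 20486 genes (13.7%).

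Over the 10 libraries the members split by their likeness to Dbp, as correlations of log2 CPM that hold group differences and are descriptions. Pearson r with Dbp was 0.80 for Nr1d1 (Spearman rho = 0.82), 0.70 for Nr1d2 (0.64) and 0.67 for Per3 (0.44), and -0.65 for Arntl (-0.68) and -0.64 for Nfil3 (-0.53). Without the 2 libraries whose Dbp was farthest from the median these were 0.73 for Nr1d1, 0.67 for Nr1d2, 0.67 for Per3, -0.60 for Arntl and -0.70 for Nfil3. With each group centred on its mean they were 0.52, 0.65, 0.68, -0.30 and -0.29 in the same order of genes. Per1 (-0.17), Per2 (0.17), Npas2 (-0.37) and Cry1 (-0.49) followed Dbp less closely. Nr1d2 and Per3 went together most closely (r = 0.94), and Cry1 followed Nfil3 (0.87) and Per1 (0.85), all 3 of which were highest in Rar mutant 3.

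Among 13846 other genes with a mean of at least 1 CPM, those most like Dbp were Sept4 (r = 0.92), Stk39 (0.91), Rcsd1 (0.91), Rgl3 (0.91), Lag3 (0.90) and Celf3 (0.90). Those most opposed were Rbms3 (-0.88), Donson (-0.88), Hbs1l (-0.87), Jazf1 (-0.85), Cd44 (-0.85) and Trmt61b (-0.85). Over the 6 libraries of higher title number, r was 0.94 for Sept4 and -0.91 for Rbms3. Both were picked as extremes of 13846 genes over 10 libraries that include these 6, so the values are no check on them. After centring on the groups, 0 of these 12 genes were among the 12 most like or most opposed, so the names depend on the measure.

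Other clock genes were listed apart from the members. Of 16 other core clock genes and modifiers, 0 were called by edgeR or DESeq2 in Rar mutants against controls (9 with a positive and 7 with a negative log2 fold change, median 0.03). Over all genes edgeR called 0.00972% and DESeq2 1.74%, so nothing is read from that 0. An unadjusted p under 0.05 was found for 2 of the 16, beside 9.45% of all genes. Ciart, a repressor of the loop, had 2.88 ± 1.10 CPM in Rar mutants and 5.54 ± 1.91 CPM in controls (SD, n = 3 Rar mutants and 5 controls), which is a log2 difference of -0.95 (edgeR SE 0.34, adjusted p = 0.365). It was singled out after its values were seen. Of 10 other clock output genes 0 were called by either tool, beside the same 0.00972% and 1.74% of all genes (3 positive, 7 negative, median -0.17). An unadjusted p under 0.05 was found for 2 of them, beside the same 9.45%. Tef, a D-box activator related to DBP, had 75.4 and 107 CPM in Dmrt1 het Rar mutants, 67.1, 33.1 and 45.5 CPM in Rar mutants, and 76.6, 114, 77.5, 66.0 and 58.7 CPM in controls. Rar mutants 2 and 3 were below all controls and Rar mutant 1 was among them (log2 fold change -0.71, SE 0.26, adjusted p = 0.400, edgeR).

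Nampt, the enzyme that limits NAD salvage, had 87.4 and 99.7 CPM in Dmrt1 het Rar mutants, 110.9, 96.8 and 102.7 CPM in Rar mutants, and 89.3, 78.5, 55.1, 62.3 and 66.6 CPM in controls. Rar mutants lay wholly above controls, for 1 of the 10 output genes (Nampt) and 2.68% of all genes, and Dmrt1 het Rar mutants did not. The Nampt log2 fold change of 0.55 (SE 0.16) for Rar mutants against controls did not pass the test (adjusted p = 0.245, edgeR). Pdk4, a mitochondrial kinase that restrains glucose oxidation, stood at a log2 value of -0.24 for the same contrast (SE 0.33, adjusted p = 0.893, edgeR). In all Rar-deleted ovaries against controls, 0 genes of each list were called by edgeR or DESeq2, beside 0.111% and 0.745% of all genes. At an unadjusted p under 0.05 there were 0 core genes and 1 output gene, beside 8.47% of all genes. Fitted between the Rar-deleted genotypes edgeR again called 0, beside 0% of all genes (unadjusted p was under 0.05 for 3 core and 4 output genes, beside 16.9% of all genes). By DESeq2, Pdk4 was called (3.66% of all genes were), higher in Dmrt1 het Rar mutants. For Dmrt1 het Rar mutants against controls 0 were called by either tool, beside 0.0194% of all genes by edgeR and 1.78% by DESeq2. At an unadjusted p under 0.05 were 0 core and 4 output genes, beside 17.3% of all genes. There edgeR called Pdk4, higher, when control 1 was left out (1.78% of all genes were called then). Control 1 is the only control with a title number under 7800, where both Dmrt1 het Rar mutants fall. Without it the genotype and the title-number set cannot be told apart in this contrast.

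Between the title-number sets edgeR called 2 of the 16 core genes and modifiers, a share close to the 11.7% of all genes called. Clock, the usual partner of ARNTL, was higher in the 4 libraries of lower number, at 107 ± 19.2 CPM (SD, n = 4), against 66.9 ± 8.85 CPM in the other 6 (SD, n = 6), with a log2 difference of 0.80 (SE 0.13, adjusted p = 0.00947, edgeR). Gsk3b, a kinase that acts on clock proteins, was higher by 0.69 (SE 0.13, adjusted p = 0.0130, edgeR), at 109 ± 8.53 CPM in the lower numbers against 67.0 ± 7.22 CPM in the higher. DESeq2 called 4 of the 16, adding Rora and Fbxl21, beside 20.3% of all genes. Without control 1 the adjusted p was 0.0698 for Clock and 0.130 for Gsk3b, and without Rar mutant 1 it was 0.0886 for Clock and 0.0841 for Gsk3b.

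Of 10 glucocorticoid-responsive genes, targets of adrenal hormones that have a daily rhythm, 3 were called between the title-number sets by edgeR, and 3 by DESeq2, beside 11.7% and 20.3% of all genes. Nr3c1, the glucocorticoid receptor, was higher in the lower numbers by a log2 difference of 0.60 (SE 0.13, adjusted p = 0.0233, edgeR), at 55.0 ± 12.9 CPM in the lower numbers against 43.2 ± 5.69 CPM in the higher. Among the lower numbers, Rar mutant 1 had 66.6 CPM and control 1 had 65.7 CPM, while the Dmrt1 het Rar mutants had 42.2 to 45.7 CPM. The metallothionein genes Mt1 (-1.11, SE 0.27, adjusted p = 0.0316, edgeR) and Mt2 (-1.59, SE 0.42, adjusted p = 0.0400, edgeR) were lower there, Mt1 at 116 ± 67.7 CPM in the lower numbers against 249 ± 83.6 CPM in the higher, and Mt2 at 4.98 ± 3.86 CPM against 17.5 ± 11.5 CPM in the higher. Control 1 and Rar mutant 1 are the libraries on which the lower set rests in this fit, and without either each call was lost in edgeR. Without control 1 the adjusted p was 0.155 for Nr3c1, 0.274 for Mt1 and 0.200 for Mt2, and without Rar mutant 1 it was 0.136 for Nr3c1, 0.0720 for Mt1 and 0.200 for Mt2. The call was also lost for Nr3c1 without Rar mutant 2 (adjusted p = 0.0544), for Mt1 without control 4 (0.0571), and for Mt2 without Rar mutant 2 (0.0569), Rar mutant 3 (0.0705) or control 4 (0.0663). In Rar mutants against controls 0 of the 10 were called by edgeR or DESeq2, beside 0.00972% and 1.74% of all genes. Of the 10, 8 were positive and 2 negative, and 2 had an unadjusted p under 0.05, beside 9.45% of all genes. There edgeR called 1, Errfi1, higher, when Rar mutant 1 was left out (1.88% of all genes were called then). For Dmrt1 het Rar mutants edgeR called 0 of the 10 against controls and 0 against Rar mutants, beside 0.0194% and 0% of all genes. An unadjusted p under 0.05 was found for 2 in each, beside 17.3% of all genes against controls and 16.9% against Rar mutants. DESeq2 called 0 against controls, beside 1.78% of all genes. Against Rar mutants it called Mt1 and Mt2, both lower (3.66% of all genes), and edgeR called Mt2 there without Rar mutant 1 (1.64% of all genes). Both Dmrt1 het Rar mutants belong to the lower numbers, in which Mt1 and Mt2 were lower. Without Rar mutant 1 the genotype and the title-number set cannot be told apart in that contrast.

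Some members share exon sequence with a gene on the opposite strand, by GENCODE M21 on GRCm38. Dbp (chr7:45705088-45710203, plus strand) shares 539 exon bases, 18.0% of its own, with Sphk2, and Nr1d1 (chr11:98767932-98775333, minus strand) shares 263, 8.55%, with Thra. Arntl shares 33, 0.439%, with the predicted gene Gm45355. The library kit keeps strand but the counting setting is not given in the sources used here, so reads of those stretches cannot be assigned to 1 gene with certainty. In Rar mutants against controls the log2 fold change was -0.23 (SE 0.12) for Sphk2 and -0.39 (SE 0.18) for Thra, smaller than for their partners, and neither was called by edgeR. The other members lie, on GRCm38, at chr14:18204054-18239127 (Nr1d2, minus strand), chr7:113207465-113314126 (Arntl, plus), chr13:52967209-52981073 (Nfil3, minus), chr11:69095217-69109960 (Per1, plus), chr1:91415982-91459324 (Per2, minus), chr4:151003652-151044665 (Per3, minus), chr1:39193731-39363236 (Npas2, plus) and chr10:85131700-85185064 (Cry1, minus).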

How the data were processed

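Per the labels' protocols, whole ovaries were lysed and a kit that keeps strand was used on polyA RNA of 10 samples. The submitters' processing notes name the build GRCm38 (mm10) and the tools STAR 2.4.2a, Trimmomatic 0.32, DESeq2 1.12.3 and SAMtools 1.0. The authors deposited raw counts per Ensembl gene and, in a separate table, normalised FPKM. Per the file headers, the authors' table of differential expression holds log2 fold changes and their SE, a Wald score, raw and adjusted p-values, and a mean count, which is a signal after normalisation. The counting tool is not given in the sources used here.

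Counts of 24306 genes, 89 of them at 0 in every library, were tested in R 4.3.3 with edgeR 4.0.16 (quasi-likelihood test, TMM, filterByExpr, robust), two-sided, with Benjamini-Hochberg adjustment over all genes tested and a threshold of 0.05. Rar-deleted ovaries against controls were fitted as 2 groups and the other genotype comparisons as 3 groups, which share the estimate of spread. The title-number set was a term beside the 3 groups. CPM are TMM-scaled, log2 CPM have a prior count of 2, and an SE from edgeR is the size of the fold change over the square root of F, hence approximate. A count of 0 allows 3 counts, 0.116 to 0.142 CPM per library, for counting error only. DESeq2 1.42.0, DESeq2 size factors, no filter, the title-number set as a term, replicate blocks, fewer libraries and leaving out each library were alternatives. Scripts were tested on simulated data. No pair of libraries in a group agreed within sampling noise (chi-square per gene at least 14.1).

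The members and the lists were chosen with earlier results of these data known. Named genes were the 10 members, list genes called in any comparison or otherwise the 3 of smallest p in Rar-deleted ovaries, the 6 genes most like and 6 most opposed to Dbp, the targeted receptor genes, Ptgs2 and Sult1e1. Ciart and Hlf lie outside this rule and were chosen after their values were seen, and genes that only an alternative called are named where they are counted.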

Additional observations from a re-analysis of the deposited data

Results flagged for a closer look

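In 38 groups of 5 libraries examined, 5 values stood apart from the other 4 by Dixon's 95% criterion. The criterion flags about 1 in 20 groups of independent, unselected values. These genes were chosen with earlier results known, vary together, and the Rar-deleted group pools 2 genotypes. Nothing is read from the number flagged. In the 5 Rar-deleted ovaries, Cry1 had 32.2 CPM in Rar mutant 3, with 22.0 CPM next. Per1 had 82.2 CPM in the same library, with 41.0 CPM next. Nr3c1, the glucocorticoid receptor gene, had 66.6 CPM in Rar mutant 1, with 45.7 CPM next. In the 5 controls, control 2 was the highest for Cry1 at 22.9 CPM, with 18.4 CPM next, and for Per2 at 25.7 CPM, with 9.52 CPM next.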

How the results depend on the processing

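DESeq2 called more genes than edgeR in every comparison: 180 for Rar-deleted ovaries against controls (edgeR 21), 372 for Rar mutants against controls (2), 329 for Dmrt1 het Rar mutants against controls (4), 626 for Dmrt1 het Rar mutants against Rar mutants (0, with 3467 at an unadjusted p under 0.05) and 3958 between title-number sets (2414). Its split in the last was 2072 higher and 1886 lower in the lower numbers, against edgeR's 1587 and 827. With the title-number set as a term the counts were 40, 85 and 1 for the first 3 comparisons. The 6 libraries of higher number gave 142 for Rar-deleted ovaries, and Rar mutants and controls fitted alone gave 1. Leaving out 1 library gave 5 to 52, 1 to 384, 0 to 364, 0 to 335 and 118 to 3494 in the order above. The highest count for Rar-deleted ovaries and for Dmrt1 het Rar mutants against controls came without control 1. Without Rar mutant 1 came the highest for Rar mutants against controls and for Dmrt1 het Rar mutants against Rar mutants, and the lowest between title-number sets. The cause was not tested. DESeq2 size factors and no filter kept every count within 1.5 times.

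Nothing in the labels ties same-numbered libraries together beyond the number (correlations of their deviations -0.09 to 0.43), though 5 of the 7 same-numbered pairs also fall in 1 title-number set, the pair at 0.43 (Rar mutant 1 and control 1) among them. With the replicate block, 0 genes were called for Rar-deleted ovaries and 0 for Dmrt1 het Rar mutants against controls, where edgeR called 21 and 4 without it.

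In Rar mutants against controls, leaving out 1 library gave log2 fold changes of -2.12 to -1.42 for Dbp, -1.83 to -1.34 for Nr1d1, 0.98 to 1.29 for Arntl and 1.07 to 2.39 for Nfil3, and -0.38 (without Rar mutant 3) to 0.066 (without control 1) for Pdk4, at -0.24 with all libraries.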
